A study of Homo sapiens with 18 samples.

Results

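The 10 genes described here are ATF4 and 9 genes of the integrated stress response that ATF4 governs, namely ATF5, DDIT3, TRIB3, ASNS, CHAC1, PSAT1, PHGDH, NUPR1 and PPP1R15A. They were taken by symbol from the 23106 genes of the count tables, and all 10 were found. Their mRNA was measured by RNA-seq of polyadenylated RNA in 3 human cell lines kept in normoxia or hypoxia, in a study of where hypoxia-inducible factors bind. HKC-8 is a kidney proximal tubule line, RCC4+VHL is a clear cell kidney cancer line that carries VHL, the ubiquitin ligase component that RCC4 cells lack, and HepG2 is a liver cancer line. Each of the 6 groups held 3 samples, 18 in all. By the labels, hypoxic HKC-8 and HepG2 cells were held at 0.5% oxygen for 16 h, and hypoxic RCC4+VHL cells at 1% oxygen for 24 h. The sample titles give 0.1% for hypoxic HKC-8 cells, and the study's account of the RNA-seq gives the same exposure for HKC-8, RCC4 and HepG2 cells, so the exposure of HKC-8 and RCC4+VHL cells is uncertain.

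Cells that lack amino acids, accumulate unfolded protein in the endoplasmic reticulum, lack haem or sense double-stranded RNA phosphorylate the translation factor eIF2α through one of 4 kinases. Most protein synthesis then falls, but ATF4 mRNA is translated more, because short upstream reading frames no longer hold ribosomes back. ATF4, a basic leucine zipper (bZIP) transcription factor, pairs with C/EBP and other bZIP proteins and switches on genes for amino acid synthesis and uptake, tRNA charging and, under lasting stress, cell death. RNA-seq measured neither ATF4 protein nor eIF2α phosphorylation.

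The samples held 40915980 to 97984260 counts, and HKC-8 samples, each sequenced over a pair of lanes by the labels, were the deepest. Values are CPM, the counts of a gene scaled to a common library size with TMM factors, given with their SD over the 3 samples of a group. Nothing in the labels says whether the 3 samples of a group came from separate cultures, so p-values measure the spread between these samples. All 8 hepatocyte markers reached a group mean of 1 CPM in HepG2 cells and none did in HKC-8 cells. Of 10 kidney tubule markers, 7 did so in RCC4+VHL, 4 in HKC-8 and 5 in HepG2 cells, and the proximal tubule receptor genes LRP2 and CUBN stayed under 1 CPM in every sample of all 3 lines. A list of 10 genes known to be induced by hypoxia served as a check, and all 10 rose in HKC-8 cells, all 10 in HepG2 cells and all 8 tested in RCC4+VHL cells. CA9, the carbonic anhydrase that marks hypoxic cells, had a log2 fold change of 4.92 in HKC-8 and 8.45 in HepG2 cells. In RCC4+VHL cells CA9 had too few counts to be tested (mean 0 CPM in normoxia and 0.0886 CPM in hypoxia).

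Promoter sequences show what letters lie just before a RefSeq start of these genes. The RefSeq promoter table, which gives 250 bases before and 50 after each start on GRCh38.p14, held 9 of the 10 genes, all but NUPR1, and each stretch before the start matched GRCh37, the build of the counts, at 1 place. Both strands were searched for 6 strings tied to ATF4 and its bZIP partners and 2 that hold the core of the hypoxia response element. Among all 35116 promoters, TGATGAAAC occurred in 0.225%, ATTGCATCA in 0.236%, TTGCATCA in 0.866%, TGATGNAAT in 0.991%, TGACGTCA in 1.85%, TGACGCAA in 0.513%, ACGTG in 21.4% and GCGTG in 36.5%. TTGCATCA is contained in ATTGCATCA, and a reverse TGATGNAAT can overlap both. Of the first 6 strings, ASNS held TGATGAAAC from base -68, a string known as part of its nutrient-sensing unit. CHAC1 held TTGCATCA from base -209, and PPP1R15A held TGACGTCA, the full cAMP response element, from base -58. ATF4, ATF5, DDIT3, TRIB3, PSAT1 and PHGDH held none of the 6 in this window. Counting both strands, GCGTG lay in 7 of the 9 promoters, 6 times in TRIB3, 4 times in PPP1R15A and 1 time each in ATF4, DDIT3, ASNS, CHAC1 and PSAT1. ACGTG lay in that of ATF4 alone, where matches on both strands overlap. The 3 promoters with a bZIP string and that of TRIB3 are given 5′ to 3′ on the gene's strand, with letters in capitals that mark GCGTG or its reverse CACGC for TRIB3 and only the bZIP string for the other 3. All bases lie before the RefSeq start used for each gene. These 4 stretches lie inside the GENCODE gene spans given below, so other annotated starts lie further upstream.
ASNS, GRCh37 chr7:97501721-97501820, minus strand, bases -100 to -1: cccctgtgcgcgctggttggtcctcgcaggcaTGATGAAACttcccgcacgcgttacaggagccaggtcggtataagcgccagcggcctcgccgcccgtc
CHAC1, GRCh37 chr15:41245439-41245539, plus strand, bases -230 to -130: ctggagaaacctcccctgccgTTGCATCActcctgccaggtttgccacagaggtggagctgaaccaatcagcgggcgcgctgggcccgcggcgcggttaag
PPP1R15A, GRCh37 chr19:49375578-49375677, plus strand, bases -100 to -1: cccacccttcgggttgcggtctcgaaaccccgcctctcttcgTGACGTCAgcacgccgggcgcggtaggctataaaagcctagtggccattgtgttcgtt
TRIB3, GRCh37 chr20:361789-361938, plus strand, bases -150 to -1: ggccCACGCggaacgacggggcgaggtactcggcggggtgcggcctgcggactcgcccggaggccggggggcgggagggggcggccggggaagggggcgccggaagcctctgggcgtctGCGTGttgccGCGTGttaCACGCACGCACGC
A match is a description of the letters and was not tested for binding.

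Most of these mRNAs rose with hypoxia in HKC-8 cells, and few did in the other lines. In HKC-8 cells 9 of the 10 genes rose and 0 fell, where 11.2% of the 13536 genes tested rose and 9.12% fell. ATF5, the gene left, had an unadjusted p of 0.0403 for its lower level, and DESeq2 called it lower. In RCC4+VHL cells 2 of 9 tested rose (TRIB3 and PPP1R15A) and 4 fell (ATF5, ASNS, PSAT1 and NUPR1), against 25.9% and 24.2% of 12811 genes. PHGDH had too few counts there to be tested. In HepG2 cells 0 rose and 4 fell (ATF4, DDIT3, PSAT1 and NUPR1), against 19.9% and 19.2% of 13623 genes. No gene of the 10 had a higher level there at an unadjusted p under 0.05, and DESeq2 called 0 higher. The median log2 fold change over the genes tested was 1.21 in HKC-8, -0.19 in RCC4+VHL and -0.17 in HepG2 cells, where the medians over all genes tested were 0.0036, -0.0018 and -0.0044. Each call is an adjusted p (Benjamini-Hochberg over all genes tested) under 0.05 in edgeR's quasi-likelihood test, fitted in each line apart. With bulk RNA, a change in every cell and a change in the share of cells that express a gene cannot be told apart. In 1 fit of all 18 samples, which shares one estimate of the spread, none of the 4 falls in RCC4+VHL cells passed the threshold (edgeR adjusted p from 0.125 for ATF5 to 0.478 for ASNS).

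**Figure D1:**
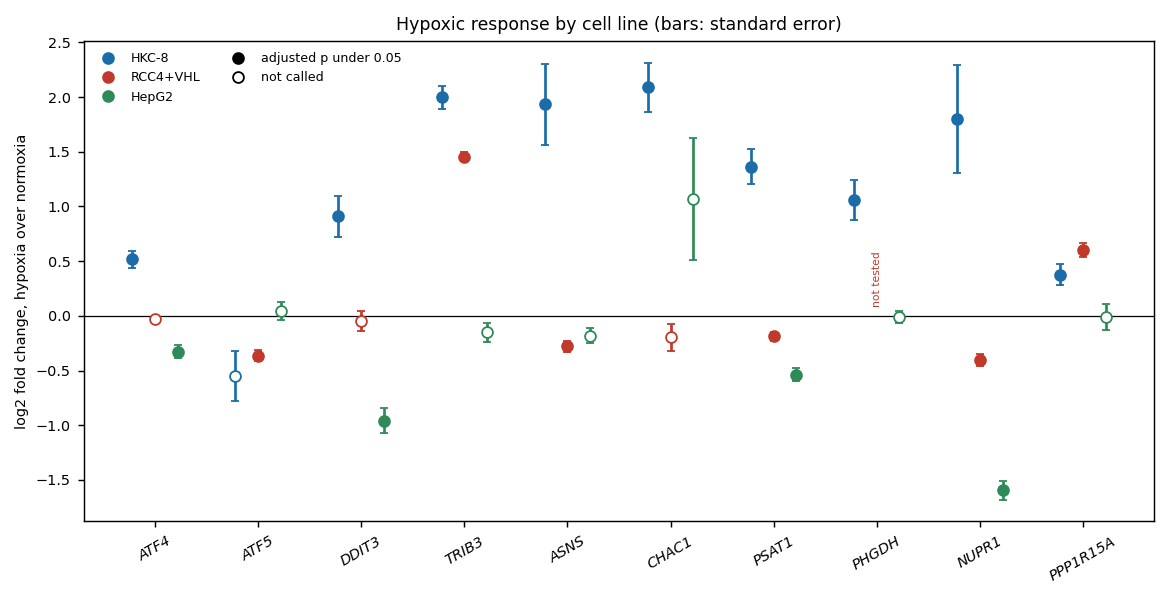
Log2 fold change, hypoxia over normoxia, of each gene in HKC-8 (blue), RCC4+VHL (red) and HepG2 (green) cells, with bars for the standard error of the edgeR estimate and filled points for an adjusted p under 0.05. The blue points lie above 0 for every gene but ATF5, while only TRIB3 and PPP1R15A have a filled red point above 0 and no filled green point lies above 0.

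**Figure D2:**
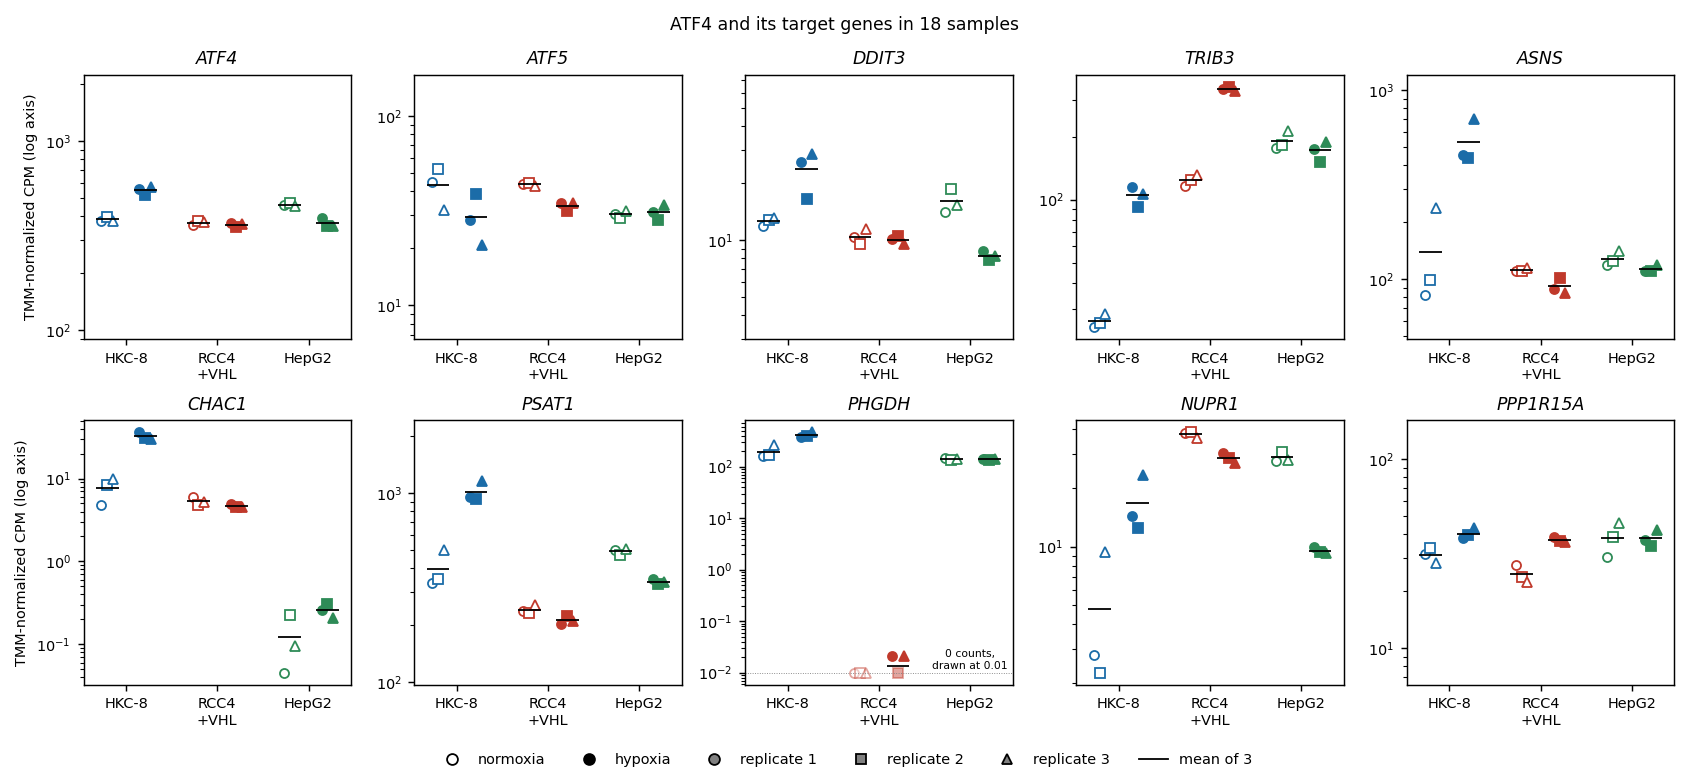
CPM after TMM scaling (log axis) of each gene in each of the 18 samples, with open symbols for normoxia, filled symbols for hypoxia, a symbol shape for each replicate number and a line at the mean of 3. The 3 normoxic samples of RCC4+VHL and 1 hypoxic sample had 0 counts of PHGDH and are drawn at 0.01 CPM.

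ATF4 (chromosome 22, 39915700 to 39918688, plus strand), the regulator itself, was abundant in every sample. In HKC-8 cells it stood at 377, 398 and 378 CPM in normoxic replicates 1 to 3 and at 556, 517 and 572 CPM in hypoxic replicates 1 to 3. Every hypoxic sample lay above every normoxic one, and its log2 fold change was 0.52 (standard error, SE, 0.08, edgeR adjusted p = 0.00308). This value was below those of 7 of the other 9 genes, all but PPP1R15A and ATF5. RCC4+VHL samples held ATF4 at 357, 378 and 373 CPM in normoxia and at 366, 352 and 363 CPM in hypoxia. Those groups overlapped, with a change of -0.03 on the log2 scale (SE 0.03, edgeR adjusted p = 0.474). In HepG2 cells it stood at 459, 471 and 450 CPM in normoxia and at 391, 354 and 357 CPM in hypoxia. All 3 hypoxic HepG2 samples lay lower, by -0.33 on the log2 scale (SE 0.06, edgeR adjusted p = 0.00112).

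The other bZIP factors of the list went different ways. DDIT3 (chromosome 12, 57910371 to 57915520, minus strand) encodes CHOP, a partner of C/EBP proteins that promotes cell death under lasting stress. It stood at 11.9, 12.8 and 13.1 CPM in normoxic HKC-8 replicates 1 to 3 and at 26.0, 16.4 and 28.6 CPM in the hypoxic ones. All hypoxic samples were higher, replicate 2 least so, and the gene had a log2 fold change of 0.91 (SE 0.19, edgeR adjusted p = 0.0112). In HepG2 cells DDIT3 went the other way, from 14.1, 18.7 and 15.4 CPM in normoxia to 8.76, 7.86 and 8.20 CPM in hypoxia. Those groups did not overlap, and the value was -0.96 (SE 0.12, edgeR adjusted p = 2.99e-05). RCC4+VHL samples held 9.48 to 11.4 CPM in normoxia and 9.52 to 10.5 CPM in hypoxia, overlapping groups (log2 fold change -0.05, SE 0.09, edgeR adjusted p = 0.684).

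ATF5 (chromosome 19, 50431959 to 50437192, plus strand), a bZIP factor whose mRNA is also under upstream reading frame control, was the 1 gene of the list with a lower mean in hypoxic HKC-8 cells. It stood at 44.6, 52.6 and 32.1 CPM in normoxic replicates 1 to 3 and at 28.3, 38.8 and 20.9 CPM in hypoxic replicates 1 to 3. The groups overlapped (log2 fold change -0.55, SE 0.23, edgeR adjusted p = 0.122). Each hypoxic sample nonetheless lay below the normoxic sample of the same number, at 0.634, 0.738 and 0.653 times its level. With the replicate number as a block, since same-numbered HKC-8 samples deviated together, ATF5 passed the threshold (log2 fold change -0.57, SE 0.07, edgeR adjusted p = 0.00013). It also passed without normoxic replicate 3 (edgeR adjusted p = 0.037) or hypoxic replicate 2 (0.0255). ATF5 also fell in RCC4+VHL cells, from 43.8, 44.2 and 42.6 CPM to 34.8, 31.6 and 34.6 CPM, without overlap (log2 fold change -0.37, SE 0.05, edgeR adjusted p = 3.25e-06). HepG2 samples overlapped at 28.8 to 31.5 CPM in normoxia and 28.1 to 34.1 CPM in hypoxia (log2 fold change 0.04, SE 0.08, edgeR adjusted p = 0.712).

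Feedback and effector genes of the pathway gave the widest range of responses. TRIB3 (chromosome 20, 343479 to 378203, plus strand), a pseudokinase that binds ATF4 and CHOP and dampens them, rose in both kidney lines. It stood at 24.7, 25.7 and 28.4 CPM in normoxic and at 115, 92.4 and 106 CPM in hypoxic HKC-8 replicates 1 to 3 (log2 fold change 2.00, SE 0.10, edgeR adjusted p = 7.03e-06). RCC4+VHL cells had a rise from 116, 125 and 131 CPM to 337, 347 and 329 CPM (log2 fold change 1.45, SE 0.04, edgeR adjusted p = 1.31e-18). Neither pair of groups overlapped, and the lowest normoxic RCC4+VHL sample (116 CPM) held as much TRIB3 as the highest hypoxic HKC-8 sample (115 CPM). HepG2 cells held 176, 183 and 212 CPM in normoxia and 175, 151 and 188 CPM in hypoxia, overlapping groups (log2 fold change -0.15, SE 0.09, edgeR adjusted p = 0.185).

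PPP1R15A (chromosome 19, 49375469 to 49379316, plus strand) encodes GADD34, the stress-induced subunit that directs protein phosphatase 1 to eIF2α and so ends the response. It rose in both kidney lines, by less than TRIB3. In HKC-8 cells it stood at 31.4, 33.7 and 28.2 CPM in normoxia and at 38.1, 39.6 and 43.0 CPM in hypoxia (log2 fold change 0.38, SE 0.10, edgeR adjusted p = 0.0274). RCC4+VHL samples held 27.5, 23.8 and 22.5 CPM in normoxia and 38.5, 36.7 and 36.4 CPM in hypoxia (log2 fold change 0.60, SE 0.06, edgeR adjusted p = 4.32e-08). Groups did not overlap in either line, but overlapped in HepG2 cells at 30.2 to 45.7 CPM in normoxia and 34.7 to 41.9 CPM in hypoxia (log2 fold change -0.01, SE 0.12, edgeR adjusted p = 0.954).

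CHAC1 (chromosome 15, 41245160 to 41248710, plus strand), an enzyme that breaks down glutathione, had the largest log2 fold change of the 10 genes in HKC-8 cells. It stood at 4.84, 8.32 and 9.79 CPM in normoxic and at 36.1, 31.3 and 30.1 CPM in hypoxic replicates 1 to 3, with no overlap (log2 fold change 2.09, SE 0.23, edgeR adjusted p = 0.000537). RCC4+VHL samples held 5.97, 4.81 and 5.17 CPM in normoxia and 4.89, 4.50 and 4.49 CPM in hypoxia, overlapping groups (log2 fold change -0.19, SE 0.12, edgeR adjusted p = 0.196). In HepG2 cells the gene was barely detected, at 0.0453 to 0.224 CPM in normoxia and 0.207 to 0.304 CPM in hypoxia. Summed over 3 samples these were 16 and 33 counts, a ratio of 2.13 with a 95% exact interval of 1.14 to 4.14 that covers counting error only. Across replicates CHAC1 did not pass the threshold in HepG2 cells (edgeR adjusted p = 0.149), and without normoxic replicate 2 it did (log2 fold change 1.86, edgeR adjusted p = 0.0466).

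NUPR1 (chromosome 16, 28544029 to 28550329, minus strand), a small stress-induced chromatin-binding protein, rose in HKC-8 cells and fell in both others. In HKC-8 cells it stood at 2.77, 2.25 and 9.41 CPM in normoxic and at 14.3, 12.5 and 23.4 CPM in hypoxic replicates 1 to 3. The groups did not overlap, and replicate 3 was the highest of its group under both conditions (log2 fold change 1.80, SE 0.49, edgeR adjusted p = 0.0337). Without normoxic replicate 3 the log2 fold change was 2.74. RCC4+VHL cells held 38.6, 38.7 and 36.3 CPM in normoxia and 30.1, 28.6 and 26.9 CPM in hypoxia (log2 fold change -0.40, SE 0.06, edgeR adjusted p = 2.24e-06). In HepG2 cells NUPR1 fell from 27.6, 30.8 and 27.8 CPM to 9.93, 9.38 and 9.26 CPM, or by -1.59 on the log2 scale (SE 0.09, edgeR adjusted p = 9.73e-09). By log2 fold change it ranked 13607 of the 13623 genes tested in HepG2 cells, where rank 1 is the largest rise.

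Amino acid synthesis is the metabolic arm of the pathway. ASNS (chromosome 7, 97480989 to 97501854, minus strand) encodes asparagine synthetase, which makes asparagine from aspartate and glutamine. In HKC-8 cells it stood at 82.8, 99.4 and 237 CPM in normoxic replicates 1 to 3 and at 452, 439 and 705 CPM in hypoxic replicates 1 to 3. Hypoxic samples were all higher, and replicate 3 was the highest of both groups (log2 fold change 1.93, SE 0.37, edgeR adjusted p = 0.00853). Leaving out normoxic replicate 3 gave a log2 fold change of 2.55. RCC4+VHL cells held 111, 110 and 114 CPM in normoxia and 88.4, 102 and 84.9 CPM in hypoxia, without overlap (log2 fold change -0.28, SE 0.05, edgeR adjusted p = 7.75e-05). HepG2 cells held 118, 125 and 141 CPM in normoxia and 111, 111 and 118 CPM in hypoxia. The lowest normoxic and the highest hypoxic sample were level after rounding, and the gene missed the threshold (log2 fold change -0.18, SE 0.07, edgeR adjusted p = 0.0526). Without HepG2 normoxic replicate 1 it passed (log2 fold change -0.24, edgeR adjusted p = 0.0224).

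PHGDH and PSAT1 encode the first and second enzymes of serine synthesis from a glycolytic intermediate. PSAT1 (chromosome 9, 80912041 to 80945009, plus strand) stood at 335, 353 and 502 CPM in normoxic and at 959, 932 and 1165 CPM in hypoxic HKC-8 replicates 1 to 3 (log2 fold change 1.36, SE 0.16, edgeR adjusted p = 0.000906). It fell in RCC4+VHL cells, from 237, 234 and 255 CPM to 202, 223 and 211 CPM (log2 fold change -0.19, SE 0.04, edgeR adjusted p = 0.000595). In HepG2 cells it fell from 502, 472 and 507 CPM to 350, 329 and 341 CPM (log2 fold change -0.54, SE 0.06, edgeR adjusted p = 1.02e-05). Normoxic and hypoxic samples did not overlap in any of the 3 lines, and PSAT1 and NUPR1 were the only genes of the 10 to pass the threshold in all 3.

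PHGDH (chromosome 1, 120191034 to 120286841, plus strand) was expressed in HKC-8 and HepG2 cells and was at or near 0 counts in RCC4+VHL cells. It stood at 158, 171 and 260 CPM in normoxic and at 370, 388 and 464 CPM in hypoxic HKC-8 replicates 1 to 3, with no overlap (log2 fold change 1.06, SE 0.18, edgeR adjusted p = 0.00535). HepG2 cells held 147, 136 and 139 CPM in normoxia and 140, 135 and 143 CPM in hypoxia (log2 fold change -0.01, SE 0.06, edgeR adjusted p = 0.883). All 3 normoxic RCC4+VHL samples had 0 counts, and the hypoxic ones had 1, 0 and 1. Taking 3 counts in the shallowest normoxic RCC4+VHL sample (0.0702 CPM) as the limit that a count of 0 allows, normoxic PHGDH was at least 2795-fold higher in HKC-8 and at least 2003-fold higher in HepG2 than in RCC4+VHL cells, which covers counting error only.

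The HKC-8 samples with the same replicate number moved together. Over all genes tested, the deviations of same-numbered normoxic and hypoxic samples from their group means correlated at 0.113, 0.466 and 0.454. In RCC4+VHL cells the values were -0.011, 0.033 and 0.014, and in HepG2 cells 0.162, 0.0609 and 0.181. The hypoxic sample of the same number was the best match for 2 normoxic HKC-8, 1 RCC4+VHL and 3 HepG2 samples. Normoxic replicate 3 held 2.60 times the mean of replicates 1 and 2 for ASNS, 3.75 times for NUPR1, 1.58 times for PHGDH, 1.49 times for CHAC1 and 1.46 times for PSAT1. ATF4, at 0.977 times, and TRIB3, at 1.13 times, were not raised in the same way. Over all 13536 genes the median of this ratio was 1.00, and it was above 2 for 371 genes (2.74%), ASNS and NUPR1 among them. Even so, every hypoxic sample lay above every normoxic sample for 9 of the 10 genes, as it did for 19.7% of all genes tested. Within pairs, ASNS was 5.46, 4.42 and 2.98 times higher in hypoxia for replicates 1 to 3, NUPR1 was 5.16, 5.55 and 2.48 times higher and TRIB3 was 4.68, 3.59 and 3.75 times higher. The pair of replicate 3 gave the smallest ratio for ASNS and NUPR1 but not for TRIB3. With the replicate block 9 genes rose and 1, ATF5, fell, against 21% and 21.6% of all genes tested.

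**Figure D3:**
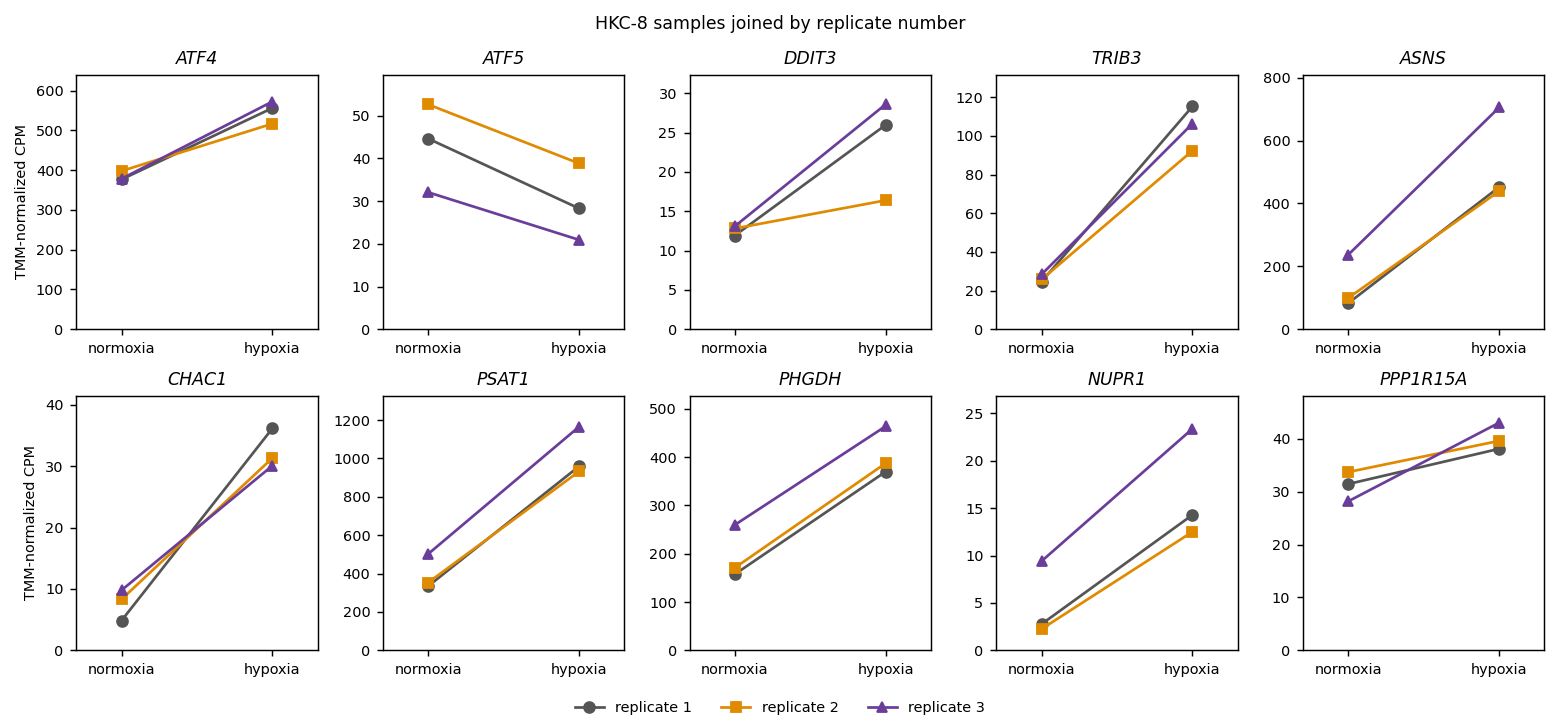
CPM after TMM scaling of each gene in HKC-8 cells, with a line joining the normoxic and hypoxic samples of each replicate number and each vertical axis starting at 0. Every line rises except the 3 lines of ATF5, which fall. Replicate 3 (purple triangles) is highest under both conditions for DDIT3, ASNS, PSAT1, PHGDH and NUPR1.

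Some HKC-8 calls were lost when single samples were left out. Leaving out 1 sample at a time left 6 to 9 of the 9 rises. Over all genes tested, 1522 rose with every sample kept and 687 to 1794 rose with 1 left out. DDIT3 was lost without normoxic replicate 1 (edgeR adjusted p = 0.0574) or hypoxic replicate 1 (0.054). NUPR1 was lost without normoxic replicate 1 or 2 or hypoxic replicate 1 or 3, with edgeR adjusted p from 0.0674 to 0.121. PPP1R15A was lost without normoxic replicate 1 or 3 or hypoxic replicate 1 or 3, with edgeR adjusted p from 0.0536 to 0.0983. ATF4, TRIB3, ASNS, CHAC1, PSAT1 and PHGDH passed in all 6 of these fits.

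The responses of the lines were compared directly through the interaction of cell line and oxygen. HepG2 and HKC-8 cells share a labelled exposure, but the sample titles give 0.1% oxygen for hypoxic HKC-8 and 0.5% for hypoxic HepG2 cells. If the titles hold, line and exposure cannot be told apart in this comparison. HepG2 and HKC-8 cells differed for 7 of the 10 genes, against 9.3% of 15046 genes differing in either direction. All 7 had a lower response in HepG2 cells. The difference in log2 fold change was -3.38 for NUPR1 (SE 0.54, edgeR adjusted p = 0.00105), -2.15 for TRIB3 (SE 0.15, edgeR adjusted p = 2.79e-07) and -2.11 for ASNS (SE 0.41, edgeR adjusted p = 0.00403). PSAT1, DDIT3, PHGDH and ATF4 differed by -1.90, -1.86, -1.07 and -0.84. ATF5, CHAC1 and PPP1R15A did not pass (differences of 0.60, -1.01 and -0.38, with SE of 0.27, 0.69 and 0.18). With the replicate block in each line the ATF5 difference passed as well (0.61, SE 0.10, edgeR adjusted p = 0.000699), and it did so without HKC-8 hypoxic replicate 2 (0.84, edgeR adjusted p = 0.0255).

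RCC4+VHL and HKC-8 cells also differed for 7 genes, all lower in RCC4+VHL cells, against 15.2% of 14203 genes. The largest differences in log2 fold change were -2.30 for CHAC1 (SE 0.28, edgeR adjusted p = 0.000181), -2.23 for ASNS (SE 0.43, edgeR adjusted p = 0.00415) and -2.20 for NUPR1 (SE 0.54, edgeR adjusted p = 0.0152). TRIB3, although it rose in both lines, rose by 0.56 less on the log2 scale in RCC4+VHL cells (difference -0.56, SE 0.12, edgeR adjusted p = 0.00652). RCC4+VHL and HepG2 cells differed for 7 genes, against 22.6% of 14813 genes, with a higher response in RCC4+VHL cells for 6 and a lower one for ATF5. TRIB3 differed most there, by 1.59 (SE 0.10, edgeR adjusted p = 1.79e-09), followed by NUPR1, which fell in both lines, by 1.18 (SE 0.10, edgeR adjusted p = 6.95e-08). In the fit of all 18 samples the differences of NUPR1 (1.19, SE 0.45, edgeR adjusted p = 0.0966), ATF5 (0.301) and PSAT1 (0.173) no longer passed. CHAC1 missed the threshold (edgeR adjusted p = 0.0657), and passed with DESeq2 (-1.30, DESeq2 adjusted p = 0.0342) and without HepG2 normoxic replicate 2 (-2.07, edgeR adjusted p = 0.00939). In both comparisons with RCC4+VHL cells the labelled oxygen level and duration differ as well, so line and exposure cannot be told apart.

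Levels in normoxia set the lines apart too, where most genes differ between lines. Sequencing depth and any difference in library preparation go with the line here, so they cannot be told apart from it. RCC4+VHL differed from HKC-8 cells for 5 of the 10 genes (80.8% of 14806 genes), HepG2 from HKC-8 cells for 9 (83%) and HepG2 from RCC4+VHL cells for 8 (83.3%). These shares are near or below those of all genes. TRIB3 was lowest in HKC-8 cells at 26.3 ± 1.91 CPM (SD, n = 3), higher in RCC4+VHL cells at 124 ± 7.48 CPM and highest in HepG2 cells at 191 ± 19.1 CPM, and each step passed the threshold (edgeR adjusted p = 2.22e-11 and 7.54e-06). NUPR1 was lowest in HKC-8 cells at 4.81 ± 3.99 CPM, with 28.7 ± 1.79 CPM in HepG2 and 37.8 ± 1.34 CPM in RCC4+VHL cells. The HepG2 and RCC4+VHL samples did not overlap, but the difference did not pass in edgeR (adjusted p = 0.306), and it passed with limma voom and group weights (log2 difference -0.39, limma adjusted p = 0.0305).

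For the amino acid enzymes the order of normoxic levels was another. PSAT1 was lowest in RCC4+VHL cells at 242 ± 11.7 CPM, then 397 ± 91.8 CPM in HKC-8 and 494 ± 19.2 CPM in HepG2 cells. The upper step passed narrowly (edgeR adjusted p = 0.0203) and was lost without any 1 of 5 of the 6 HKC-8 and HepG2 samples, all but HKC-8 replicate 3. ASNS was at 112 ± 2.38 CPM in RCC4+VHL, 128 ± 11.5 CPM in HepG2 and 140 ± 84.6 CPM in HKC-8 cells. Its difference passed the threshold between no 2 lines (edgeR adjusted p = 0.31 to 0.733). The RCC4+VHL (110 to 114 CPM) and HepG2 samples (118 to 141 CPM) nonetheless did not overlap. That fit shares its estimate of the spread with HKC-8 samples, which ranged from 82.8 to 237 CPM. Leaving out HKC-8 replicate 1 made ASNS lower in RCC4+VHL than in HKC-8 cells (log2 difference -0.58, edgeR adjusted p = 0.0423). The order of the lines turned on HKC-8 replicate 3, and without it ASNS was higher in RCC4+VHL than in HKC-8 cells (log2 difference 0.29, edgeR adjusted p = 0.0048) and higher in HepG2 cells (0.46, edgeR adjusted p = 9.69e-05). CHAC1 was at 7.65 ± 2.54 CPM in HKC-8, 5.31 ± 0.593 CPM in RCC4+VHL and 0.122 ± 0.092 CPM in HepG2 cells, and only the step down to HepG2 cells passed (log2 difference of -5.41 from RCC4+VHL cells, edgeR adjusted p = 1.98e-08). Without HKC-8 replicate 1 the step between the kidney lines passed as well (log2 difference -0.76, edgeR adjusted p = 0.00444), as it did in the fit of all 18 samples (-0.53, edgeR adjusted p = 0.0183).

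ATF4 itself differed little, at 370 ± 11.1 CPM in RCC4+VHL, 384 ± 11.8 CPM in HKC-8 and 460 ± 10.4 CPM in HepG2 cells, of which only HepG2 cells stood apart (log2 difference from HKC-8 cells 0.28, edgeR adjusted p = 0.000756). DDIT3 was at 10.4 ± 0.949, 12.6 ± 0.616 and 16.1 ± 2.35 CPM in the same order of lines, and ATF5 at 43.5 ± 0.798, 43.1 ± 10.4 and 30.2 ± 1.35 CPM. The difference between the kidney lines did not pass for either gene (edgeR adjusted p = 0.059 and 0.874). The DDIT3 samples of these lines did not overlap, and their difference passed with limma voom and group weights (log2 difference -0.27, limma adjusted p = 0.0436) and without RCC4+VHL replicate 3 (edgeR adjusted p = 0.0498). DDIT3 was higher in HepG2 than in HKC-8 cells (edgeR adjusted p = 0.0115), a call lost without HepG2 replicate 2 (0.174). PPP1R15A was at 24.6 ± 2.61, 31.1 ± 2.78 and 38.3 ± 7.79 CPM, and the differences of each of the other lines from HKC-8 cells passed narrowly (edgeR adjusted p = 0.037 and 0.038) and were not stable. Against RCC4+VHL cells the call was lost without HKC-8 replicate 1 or 2 or RCC4+VHL replicate 2 or 3 (edgeR adjusted p from 0.0738 to 0.138), and against HepG2 cells without any 1 of the 3 HKC-8 samples or HepG2 replicate 2 or 3 (0.0555 to 0.377).

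To compare genes with one another, CPM was divided by the length of the canonical transcript in kilobases. NUPR1 was left out, because its 2 annotated coding transcripts are 550 and 5291 bases long. Coding transcripts of the genes kept also vary, such as 548 to 2585 bases for PHGDH, 562 to 2385 for ASNS and 877 to 2356 for TRIB3. The order of genes with close values therefore depends on the transcript used. In normoxic HKC-8 cells ATF4 was highest at 271 CPM per kilobase, followed by PSAT1 at 180, PHGDH at 105 and ASNS at 58.6 CPM per kilobase. ATF5, DDIT3, PPP1R15A and TRIB3 lay between 21.5 and 11.1, and CHAC1 was lowest at 5.03 CPM per kilobase. In hypoxic HKC-8 cells PSAT1, at 462 CPM per kilobase, stood above ATF4, at 386, ASNS stood at 223 and PHGDH at 218 CPM per kilobase.

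The genes whose pattern was most like each of the 10 were found by Pearson's r of log2 CPM over the 18 samples after subtracting each line's mean, among 11418 genes tested in all 3 lines. PHGDH was not among them. ASNS was most like PCK2 (r = 0.986), the mitochondrial phosphoenolpyruvate carboxykinase, and CARS (r = 0.970), the cysteinyl-tRNA synthetase. PSAT1 was most like SESN2 (r = 0.975), a sestrin that restrains mTORC1, then CARS (r = 0.971) and the neutral amino acid transporter SLC1A4 (r = 0.969). SESN2 also came first for ATF4 (r = 0.945), and ATF4 stood behind SLC25A37 and DNAJB9 for DDIT3 (r = 0.914). For the rest the first neighbour was FZD1 (r = 0.984) for TRIB3, RBM14 (r = 0.976) for ATF5, WDSUB1 (r = 0.962) for NUPR1, TXNRD3 (r = 0.912) for CHAC1 and MSANTD3 (r = 0.904) for PPP1R15A, and WARS (r = 0.941), the tryptophanyl-tRNA synthetase, came at rank 3 for NUPR1. The 18 samples share the oxygen contrast within each line, and r is given as a description. Within single lines of 6 samples, 36 of 45 pairs of the 10 genes had a positive r in HKC-8 cells (median 0.872). The counts were 27 of 45 in HepG2 cells (median 0.240) and 20 of 36 in RCC4+VHL cells (median 0.240). Each set of 6 holds both oxygen groups, so this r includes the oxygen contrast and adds no support to the calls. The share over all gene pairs was not computed.

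Other genes of the pathway were followed as lists, none of which holds any of the 10 genes. Their counts stand against 11.2% of all genes higher and 9.12% lower in HKC-8 cells (21% and 21.6% with the replicate block), 25.9% and 24.2% in RCC4+VHL cells and 19.9% and 19.2% in HepG2 cells. Wherever one of these lists had 0 calls in 1 direction, no gene of it had an unadjusted p under 0.05 in that direction in edgeR and DESeq2 called 0. Of the 4 eIF2α kinases, 0 rose and 2 fell in HKC-8 cells, 2 rose and 0 fell in RCC4+VHL cells and 1 rose and 0 fell in HepG2 cells (median log2 fold changes -0.25, 0.10 and 0.09). In HKC-8 cells EIF2AK4 (GCN2, which senses uncharged tRNA) had a log2 fold change of -0.55 (edgeR adjusted p = 0.00418) and EIF2AK2 (PKR, which senses double-stranded RNA) of -0.45 (edgeR adjusted p = 0.0067). EIF2AK3 (PERK, the sensor in the endoplasmic reticulum) and EIF2AK1 (HRI, the haem sensor) were at -0.06 and -0.04 and did not pass. EIF2AK4 rose in RCC4+VHL cells (log2 fold change 0.28, edgeR adjusted p = 7.11e-06), as did EIF2AK3 (0.16, edgeR adjusted p = 0.0226), which was lost without normoxic replicate 2 (edgeR adjusted p = 0.172) or hypoxic replicate 1 (0.119). In HepG2 cells EIF2AK1 rose (0.28, edgeR adjusted p = 0.00138). Of 12 genes for eIF2, eIF2B and the eIF2α phosphatase, 1 rose in each line and 4, 5 and 6 fell in HKC-8, RCC4+VHL and HepG2 cells. The HKC-8 counts were 2 and 6 with the replicate block, and the medians were -0.12, -0.08 and -0.13. EIF2B3, a subunit of the exchange factor eIF2B, fell in all 3, with log2 fold changes of -0.62, -0.40 and -0.45. The 5 falls in RCC4+VHL cells became 3 without normoxic replicate 2, hypoxic replicate 1 or hypoxic replicate 3, and the 6 in HepG2 cells became 2 and 3 without hypoxic replicates 1 and 2.

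The lists downstream of ATF4 rose broadly in HKC-8 cells. Of 10 amino acid transporters 9 rose and 0 fell there (median log2 fold change 0.72, against 0.22 and -0.13 in RCC4+VHL and HepG2 cells). SLC1A4 (1.82) and the cystine transporter SLC7A11 (1.46, edgeR adjusted p = 0.00044) changed most. Of 8 tested in RCC4+VHL cells 4 rose and 2 fell. Among those that rose was SLC7A5, which imports large neutral amino acids (0.66, edgeR adjusted p = 2.51e-12). In HepG2 cells 2 of 10 rose and 4 fell, SLC7A11 by -0.64 (edgeR adjusted p = 0.00125). Of 13 enzymes of serine, glycine, proline and one-carbon metabolism 9 rose and 1 fell in HKC-8 cells (median 0.48, against -0.09 and -0.04), led by the alanine aminotransferase GPT2 (1.52, edgeR adjusted p = 0.000139) and ALDH1L2 (1.28, edgeR adjusted p = 0.00395). Of 12 tested in RCC4+VHL cells 3 rose and 6 fell, and in HepG2 cells 3 of 13 rose and 4 fell. PSPH, the last enzyme of serine synthesis, fell in both, by -0.37 and -0.56 on the log2 scale (edgeR adjusted p = 2.55e-07 and 2.96e-05).

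Of the 13 genes for aminoacyl-tRNA synthetases and the tRNA exporter XPOT, 7 rose and 0 fell in HKC-8 cells (median 0.31, against -0.04 and -0.15), with GARS (0.84) and CARS (0.76) at the top. This count was 12 with the replicate block, and 2, 4, 3 and 3 without normoxic replicate 1, normoxic replicate 2, hypoxic replicate 1 and hypoxic replicate 3. RCC4+VHL cells had 1 rise and 5 falls, and HepG2 cells 0 rises and 6 falls, YARS by -0.60 (edgeR adjusted p = 2.86e-05). The bZIP relatives counted 5 rises and 0 falls among 10 tested in HKC-8 cells, 2 and 4 among 10 in RCC4+VHL cells and 4 and 2 among 11 in HepG2 cells (medians 0.48, -0.04 and -0.08). Without normoxic replicate 1, normoxic replicate 2 or hypoxic replicate 2, 1 rose in RCC4+VHL cells. ATF3, itself a stress-induced repressor, had a log2 fold change of 1.34 in HKC-8 cells (edgeR adjusted p = 0.000776), and CEBPB, a partner of ATF4, of -0.76 in RCC4+VHL cells (edgeR adjusted p = 1.28e-08).

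Stress and growth outputs, a list that includes genes also known as hypoxia targets, counted 11 rises among 16 tested in HKC-8, 8 of 16 in RCC4+VHL and 5 of 16 in HepG2 cells, with 1, 2 and 2 falls (medians 0.90, 0.13 and 0.01). These compare with rises of 11.2%, 25.9% and 19.9% of all genes. The HKC-8 count was 7 without normoxic replicate 1, normoxic replicate 2, hypoxic replicate 1 or hypoxic replicate 3. DDIT4 (REDD1), an inhibitor of mTORC1, led this list in all 3 lines, with log2 fold changes of 2.43, 2.72 and 2.08. SESN2, named here after its values were seen, had log2 fold changes of 1.21 (edgeR adjusted p = 0.000387), -0.24 (0.00223) and -0.48 (0.000136). Of 16 ATF6 and XBP1 targets, which answer to the other arms of the unfolded protein response, 3 rose and 2 fell in HKC-8, 6 and 8 in RCC4+VHL and 1 and 9 in HepG2 cells (medians -0.14, -0.11 and -0.20). With the replicate block the HKC-8 counts were 5 and 6, and leaving out 1 sample gave 2 to 4 rises and 0 to 5 falls, with 0 without normoxic replicate 1, hypoxic replicate 1 or hypoxic replicate 3, 1 without normoxic replicate 2 and 5 without hypoxic replicate 2. EDEM1 rose in HKC-8 (log2 fold change 0.63, edgeR adjusted p = 0.000765) and RCC4+VHL cells (0.47, edgeR adjusted p = 2.34e-09). SDF2L1 fell in all 3 lines, with log2 fold changes of -0.85, -0.69 and -0.64. Its HKC-8 call (edgeR adjusted p = 0.0331) was lost without normoxic replicate 1 or 2 or hypoxic replicate 1 or 3. HSPA5 (BiP), the main chaperone of the endoplasmic reticulum, named here after its values were seen, had a log2 fold change of -0.08 in HKC-8 cells and did not pass (edgeR adjusted p = 0.649). It fell in RCC4+VHL cells (-0.13, edgeR adjusted p = 0.00103) and in HepG2 cells (-0.18, edgeR adjusted p = 0.035).

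The RCC4+VHL list counts were smaller in the fit of all 18 samples, where 1867 genes in place of 3318 rose in that line and 1419 in place of 3105 fell. ATF6 and XBP1 targets then had 3 rises and 5 falls, synthetases 3 falls with their 1 rise lost, and bZIP relatives 1 rise and 1 fall. Falls numbered 2 for eIF2 and eIF2B genes and 1 each for transporters and stress outputs, and rises 1 each for eIF2α kinases and serine and one-carbon enzymes. In HepG2 cells that fit gave 2 falls in place of 4 for transporters, 1 in place of 2 for stress outputs, and 2 rises in place of 1 for eIF2 and eIF2B genes. Synthetases had 2 rises in RCC4+VHL cells without hypoxic replicate 1, and stress outputs had 1 fall in HepG2 cells without hypoxic replicate 2. The 1 rise of eIF2 and eIF2B genes in HepG2 cells became 2 without normoxic replicate 1 or hypoxic replicate 3.

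**Figure D4:**
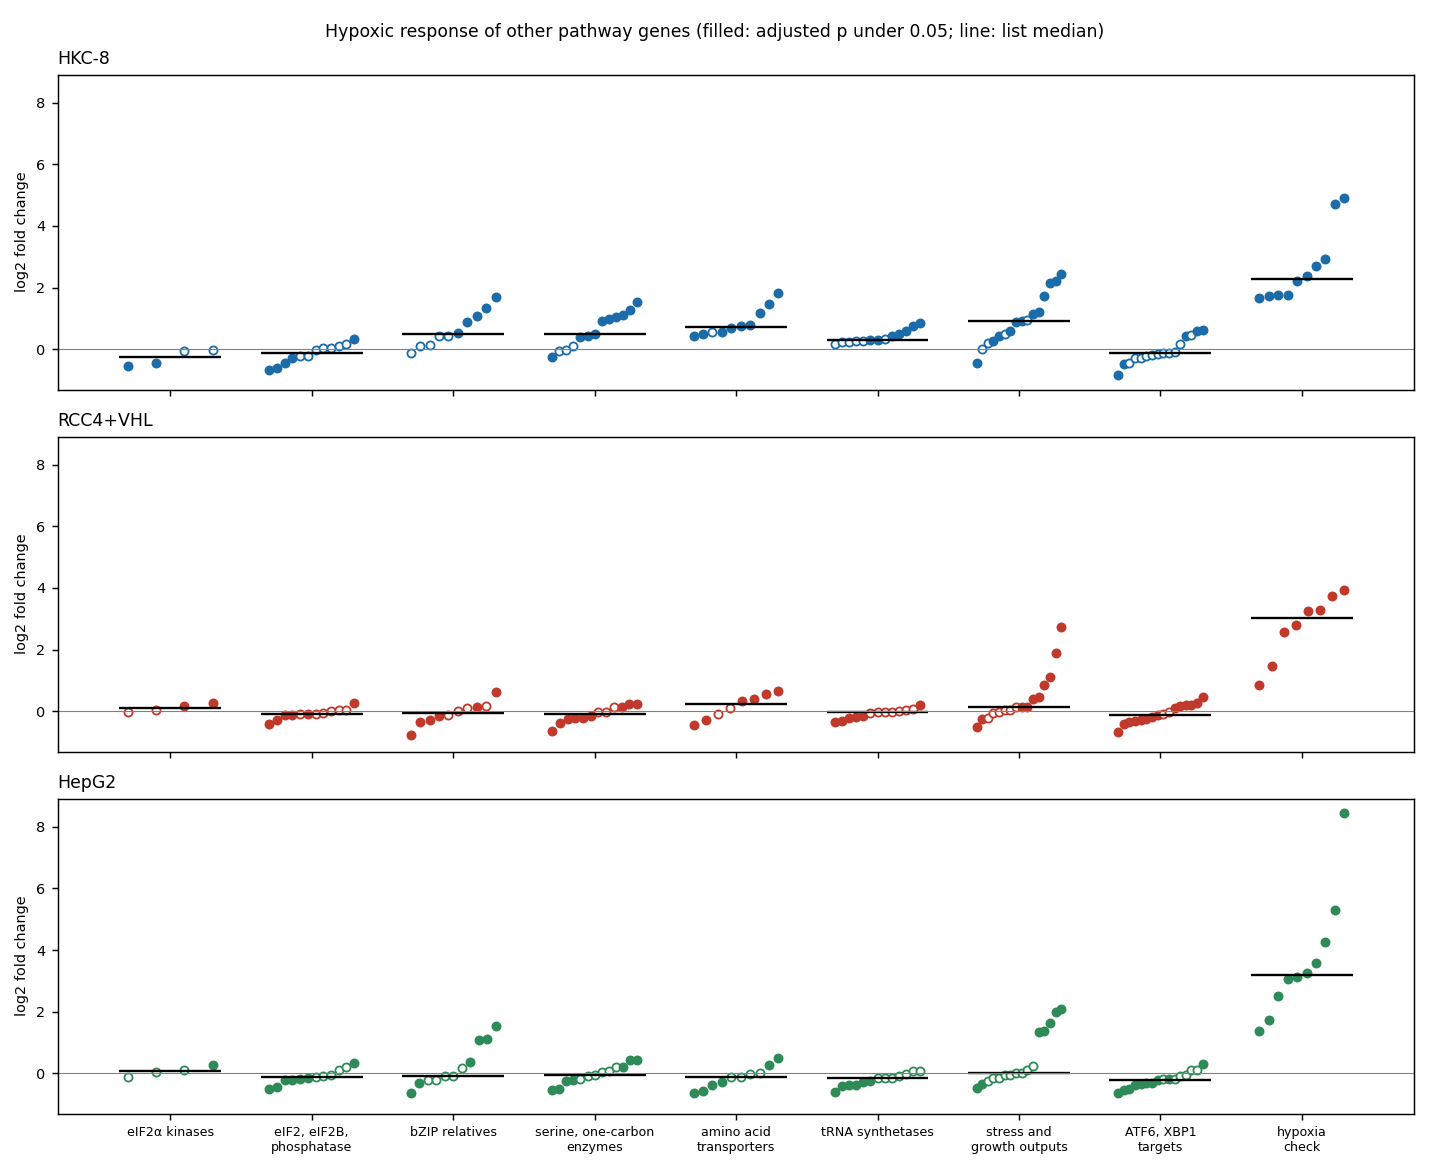
Log2 fold change, hypoxia over normoxia, of the genes tested in each list (points, sorted within a list, filled at an adjusted p under 0.05), with a line at the list's median, for HKC-8 (top), RCC4+VHL (middle) and HepG2 (bottom) cells. Transporters, serine and one-carbon enzymes and synthetases lie mostly above 0 in HKC-8 cells and around or below 0 in HepG2 cells, while the hypoxia check genes lie above 0 in all 3 lines.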

How the data were processed

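The deposited files hold raw read counts per gene for each of 18 samples, made by the authors from ScriptSeq v2 libraries of polyA+ RNA. Per the study's methods and the submitters' processing notes, adapters were trimmed with Trim Galore 0.3.3, reads aligned to GRCh37 with TopHat 2.0.8b and Bowtie 1.0.0, multiply mapped fragments removed with SAMtools 0.1.19 and UCSC genes counted with HTSeq 0.5.4p3 in its strict intersection mode, which drops fragments that reach past exons. The strand setting of the counting is not given in the sources used here, so reads from overlapping antisense genes may be included. Depth was 40915980 to 97984260 counts per sample, and replicates of a group differed by more than sampling noise.

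The members and gene lists were chosen with earlier results of these data known. Counts were analysed in R 4.3.3 with edgeR 4.0.16 (filterByExpr at 10 counts, TMM, quasi-likelihood test, two-sided, adjusted p threshold 0.05 over all genes tested). Each line was fitted apart for hypoxia, pairs of lines together for the interaction, and the 9 normoxic samples together for levels. Standard errors are the absolute log2 fold change over the root of F. CPM used TMM factors over all 18 samples. Named list genes are at most the 2 per list and line with the largest absolute change among those that passed and did not overlap, and every eIF2α kinase, except SESN2 and HSPA5, named after their values were seen. The HKC-8 replicate numbers were taken as pairs, since all 3 correlations of same-numbered samples were over 0.1. Those of RCC4+VHL and HepG2 were not. The comparison code was tested on simulated data. Alternatives were DESeq2 1.42.0, limma 3.58.1 voom, other size factors and filters, 1 fit of all samples, the replicate block and each sample left out. Gene positions are from GENCODE on GRCh37.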

Additional observations from a re-analysis of the deposited data

Results flagged for a closer look

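Responses to hypoxia that differed between lines in a direct test of the difference (interaction in edgeR, adjusted p under 0.05) are listed here as the log2 fold change of the first line minus that of the second. HepG2 minus HKC-8 was -0.84 for ATF4, -1.86 for DDIT3, -2.15 for TRIB3, -2.11 for ASNS, -1.90 for PSAT1, -1.07 for PHGDH and -3.38 for NUPR1. RCC4+VHL minus HKC-8 was -0.57 for ATF4, -0.98 for DDIT3, -0.56 for TRIB3, -2.23 for ASNS, -2.30 for CHAC1, -1.57 for PSAT1 and -2.20 for NUPR1. RCC4+VHL minus HepG2 was 0.29 for ATF4, -0.42 for ATF5, 0.90 for DDIT3, 1.59 for TRIB3, 0.34 for PSAT1, 1.18 for NUPR1 and 0.60 for PPP1R15A. The first 2 comparisons share the HKC-8 samples, and both comparisons with RCC4+VHL cells also differ in the labelled oxygen level and duration. For hypoxic HKC-8 cells the titles give 0.1% oxygen and for hypoxic HepG2 cells 0.5%, where the labels give 0.5% for both.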

How the results depend on the processing

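Of the single-gene hypoxia values under all alternatives, 1037 kept their side of the threshold, 9 gained a call and 21 lost one. A change of sign with a call in either fit occurred in 0. These totals cover the 10 genes and the list genes named by rule, hypoxia check genes included. Apart from the eIF2α kinases, those list genes were chosen because they passed, so the totals overstate the stability of the 10 genes. Among the 10, calls were lost for DDIT3, NUPR1 and PPP1R15A in HKC-8 cells and for ATF5, ASNS, PSAT1 and NUPR1 in RCC4+VHL cells. Values near 0 with no call in either fit could change sign and are counted among the 1037. An example is PPP1R15A in HepG2 cells, from -0.16 to 0.13 leaving out single samples. The number of the 10 genes that fell in HKC-8 cells was 1 (ATF5) in place of 0 with DESeq2, in 1 fit of all 18 samples and with the replicate block, and 0 to 1 when samples were left out in turn. In the fit of all 18 samples 0 in place of 4 fell in RCC4+VHL cells, and 4 in place of 7 differed in response between RCC4+VHL and HepG2 cells, with ATF5, PSAT1 and NUPR1 lost. The number that rose in HepG2 cells was 0 to 1 (CHAC1) leaving out single samples. The normoxic ASNS difference reversed without HKC-8 normoxic replicate 3, with a range over left-out samples of -0.58 to 0.29 for RCC4+VHL and -0.38 to 0.46 for HepG2 against HKC-8 cells. It also changed sign in HepG2 cells, without passing, with limma voom (0.05) and the replicate block (0.01). In HepG2 cells ASNS fell with the replicate block (-0.18, edgeR adjusted p = 0.0225). The HepG2 numbers were not taken as pairs, since the correlations (0.162, 0.0609 and 0.181) were not all over 0.1. Each of the 3 normoxic HepG2 samples was nonetheless most correlated with the hypoxic sample of its own number. The block changed no other call of the 10 genes in HKC-8 cells, and in normoxia, where replicate numbers are shared across lines only by name, PPP1R15A was lost between HepG2 and HKC-8 cells (edgeR adjusted p = 0.051). Synthetase rises in HKC-8 cells were 11 with DESeq2 and 12 in the fit of all 18 samples in place of 7, and ATF6 and XBP1 targets had 5 rises and 6 falls in that fit in place of 3 and 2. In HKC-8 cells the 1 fall among serine and one-carbon enzymes and the 1 rise among eIF2 and eIF2B genes became 0 without normoxic replicate 1 or 2 or hypoxic replicate 1 or 3. Over all genes, the HKC-8 calls were 1522 higher and 1235 lower, 2836 and 2919 with the replicate block, 2503 and 2510 in the fit of all 18 samples, and 687 and 326 without normoxic replicate 1. In that fit of all samples the RCC4+VHL calls were 1867 higher and 1419 lower in place of 3318 and 3105. The cause of these shifts was not tested. Low counts of the gene limit what can be said of CHAC1 in HepG2 and PHGDH in RCC4+VHL cells.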
